A study of Mus musculus with 12 samples.

Results

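Unprecipitated RNA of the immunoprecipitation experiment on mouse 2-cell embryos was compared between 2 pairs of libraries. The members are the 4 CPM columns (CPM, the reads of a gene scaled to a fixed library total) whose names are neither the anti-His nor the IgG pulldown, and they make up 4 of the 12 samples of the study. Removing the suffix A or B from their names leaves the stems In_ni and In_total, each with 2 libraries. The labels list 2 Input samples, from embryos of genotype Eif1ad3_OE, and 2 total samples, from WT embryos. The names of the columns do not decide which pair is Input and which is total, so every difference is given by column name, as In_total minus In_ni.

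The study asked what Eif1ad3 does when the genome of the mouse embryo is switched on. In this experiment zygotes of the Eif1ad3_OE group were injected with Eif1ad3 mRNA made in vitro and carrying a His tag (200 ng/uL), and 200 cells per replicate, of overexpressing and of control embryos, were collected at the 2-cell stage. Embryos were pooled within a replicate, and the labels do not say whether the replicates A and B came from separate collections or injections, so p-values measure the spread between libraries, which may be technical. The other 8 samples are the pulldown libraries and a knockdown experiment. The pulldown libraries are used below only for a few levels and in a fit of all libraries of the immunoprecipitation experiment. No value of the knockdown experiment is given.

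A mouse embryo starts with messenger RNA and proteins stored in the oocyte, and at the 2-cell stage much of that RNA is degraded while the embryonic genome begins to be transcribed. Eif1ad genes encode proteins with the domain of translation initiation factor eIF1A, which helps the small ribosomal subunit find the start codon. Input RNA in a pulldown experiment is the RNA of the lysate before the antibody is applied, and it serves as the reference for what was recovered.

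The deposited values were whole multiples of 1 read, which gave library totals of 23321923 and 25209070 reads in the In_ni pair and 15715664 and 16724030 reads in the In_total pair. The smaller libraries were all in 1 pair, so depth and pair cannot be told apart. A count of 3 reads corresponds to 0.119 to 0.191 CPM, and between 13110 and 13677 of 19390 listed genes reached 1 CPM. Libraries were amplified by PCR without molecular identifiers, so this limit covers counting error only. Pearson's correlation of log2(CPM + 1) across genes was 0.990 within the In_ni pair, 0.984 within the In_total pair and 0.956 to 0.973 between the pairs.

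The pairs differed in many genes. Of 13738 genes that reached 1 CPM in 2 or more of the 4 libraries, 4202 (30.6%) passed an adjusted p of 0.05 (limma), 1730 of them higher in In_total (12.6% of all genes tested) and 2472 lower (18.0%). By at least 1 log2 unit, 1019 genes were higher and 861 lower, and by at least 2 units 67 were higher and 8 lower. Over all genes tested the median log2 difference was -0.10, and after rescaling each library to a common median it was 0.03, so differences of that size say nothing about a single gene. The split of the calls moved with the scaling. Of the calls, 41.2% were higher in In_total with CPM as deposited, 55.5% after median rescaling, 49.3% after quantile normalization, 52.4% with edgeR and 53% with DESeq2. Among genes called both with CPM as deposited and under any of these 4, none had opposite directions. The count was 2554 without In_ni replicate A and 1607 without In_ni replicate B, and it was 3 when the spread was estimated from all 8 libraries of the table, the IgG libraries included. When 1 library is left out, here and below, its pair has a single library, whose spread is assumed to be that of the other pair. The share of all genes called also moves then, so list counts without 1 library are not to be set against 12.6% and 18.0%. RNA was taken from whole embryos, so fewer cells of a type and less RNA per cell cannot be told apart in any of these values.

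**Figure D1:**
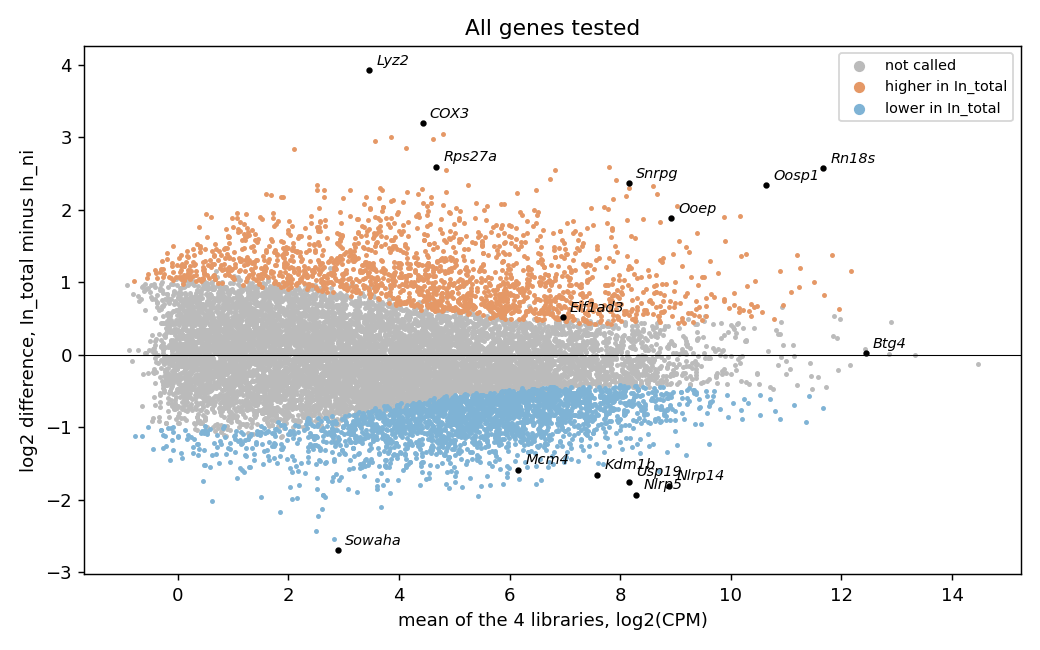
Difference of each of the 13738 genes tested (vertical axis, log2 units, In_total minus In_ni on the log2(CPM + 1) scale) against its mean level over the 4 libraries (horizontal axis, log2 of CPM). Orange and blue points passed an adjusted p of 0.05 (limma) and grey points did not; Rn18s, Oosp1 and COX3 are among the genes higher in In_total, Nlrp5 and Nlrp14 among those lower, and Eif1ad3 and Btg4 are not called.

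The Eif1ad genes were higher in the In_total pair. Of 9 measured genes, 7 rose (77.8%, against 12.6% of all genes tested), none fell, and the median log2 difference was 1.13, against -0.10 for all genes tested. In all 9 genes both In_total libraries lay above both In_ni libraries, which held for 28.5% of all genes tested. The summed level of the 9 genes was 472 and 374 CPM in In_ni and 1079 and 604 CPM in In_total. Replicate A of In_total stood above replicate B in 8 of them. The genes share a family name, and their sequences were not compared here. How reads that match several of them were shared is not given in the sources used here. The values of single genes are therefore uncertain.

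Eif1ad3, the gene whose mRNA was injected, was at 109 and 91.6 CPM in In_ni and at 186 and 111 CPM in In_total. The lowest In_total library was just above the highest In_ni library. The log2 difference of 0.52 (SE 0.21) did not pass the test (limma, adjusted p = 0.078), and it rested on 1 library. It was 0.15 without In_total replicate A and 0.88, past the threshold with the spread of the In_ni pair, without In_total replicate B. It also passed with edgeR (0.69, adjusted p = 0.049) and DESeq2 (0.69, adjusted p = 0.023). The difference of the injected gene was thus smaller than that of 7 of its 8 relatives. In the His pulldown Eif1ad3 was at 80.3 and 83.6 CPM, below every one of the 4 unprecipitated libraries, and in the IgG pulldown at 1.35 and 30.8 CPM.

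On the log2(CPM + 1) scale, with all 4 libraries, Eif1ad4 showed the largest difference of the family. It was at 34.2 and 23.8 CPM in In_ni and at 124 and 58.1 CPM in In_total, a log2 difference of 1.54 (SE 0.29, limma adjusted p = 0.0015). Both In_total libraries were above both In_ni libraries. Eif1ad6 (31.6 and 21.3 against 125 and 45.6 CPM) had a log2 difference of 1.51 and Eif1ad19 (10.9 and 10.2 against 32.3 and 20.2 CPM) one of 1.20. By the ratio of means Eif1ad6 (3.22) and Eif1ad2 (3.21) were above Eif1ad4 (3.14). Without In_total replicate B Eif1ad6 was at 2.22 and Eif1ad4 at 2.08. Eif1ad8 was at 85.6 and 56.9 CPM in In_ni and at 205 and 113 CPM in In_total, and Eif1ad7 at 116 and 87.1 against 255 and 150 CPM, with log2 differences of 1.11 and 0.95. Eif1ad2 (1.41) and Eif1ad16 (1.13) also passed. The differences were smaller without In_total replicate A, at 1.00 for Eif1ad4, 0.79 for Eif1ad6, 0.68 for Eif1ad8 and 0.57 for Eif1ad7, which still passed, and at 0.91 for Eif1ad2 and 0.50 for Eif1ad16, which did not. Eif1ad19 was at 0.88. Without In_ni replicate B Eif1ad2 (1.15) and Eif1ad7 (0.74) did not pass. Eif1ad6 did not pass with DESeq2 (1.83, adjusted p = 0.055). Eif1ad, at 56.3 and 63.2 against 65.5 and 69.2 CPM, had a log2 difference of 0.17 that did not pass (limma, adjusted p = 0.48). The number of called Eif1ad genes was 5 without In_ni replicate B, 5 without In_total replicate A and 3 in a fit without a mean-variance trend, and the median was 0.68 without In_total replicate A.

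**Figure D2:**
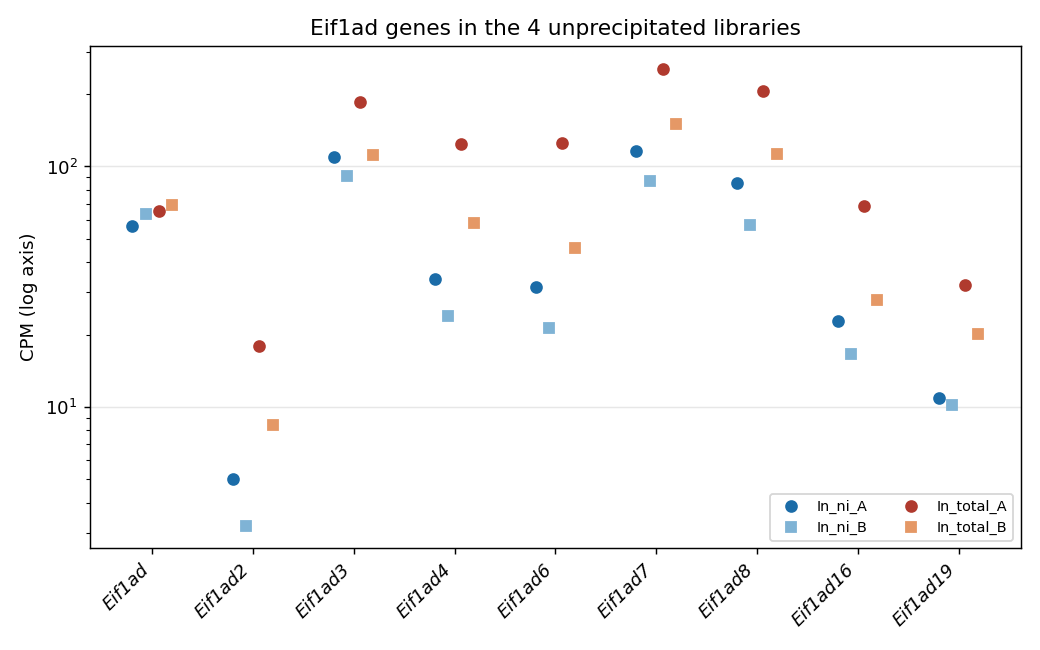
Level of each of the 9 Eif1ad genes (horizontal axis) in the 4 unprecipitated libraries (vertical axis, CPM, logarithmic). Each point is 1 library; In_total replicate A is the highest library for 8 genes, and for Eif1ad the 4 points lie between 56.3 and 69.2 CPM.

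Ribosomal RNA and transcripts of the mitochondrial genome were several-fold higher in In_total. Rn18s, the RNA of the small ribosomal subunit, was at 867 and 1000 CPM in In_ni and at 5026 and 6095 CPM in In_total. The In_total pair was 5.96-fold higher, with a log2 difference of 2.57 (SE 0.19, limma adjusted p = 8.7e-06), and the pairs were far apart next to the distance between replicates. In the pulldowns Rn18s was at 9374 and 9113 CPM with the anti-His antibody and at 11905 and 15432 CPM with IgG. Rn18s-rs5, a repeat copy, carries the same reads in the table as Rn18s and is not a second observation.

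All 11 tested transcripts of the mitochondrial genome, which encode subunits of the respiratory chain and of ATP synthase, rose in In_total, as did 12.6% of all genes tested, with a median log2 difference of 2.10. This list was chosen after its values were seen. Their summed level was 1819 and 1730 CPM in In_ni and 8278 and 3912 CPM in In_total. COX3, a subunit of cytochrome c oxidase, was at 3.17 and 2.82 against 58.7 and 21.2 CPM (log2 difference 3.19), and ND2, a subunit of complex I, at 81.7 and 57.9 against 613 and 222 CPM (2.41). In_total replicate A was above replicate B in both. Without In_total replicate A 10 of the genes reached the minimum level and were tested, all 10 were called, and their median was 1.47.

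Nuclear genes for oxidative phosphorylation moved the same way. Of 79 tested subunits 49 rose (62.0%, against 12.6% of all genes tested) and 2 fell (2.53%, against 18.0%), with a median of 1.02. The number that fell was 1 to 4 when 1 library was left out. Ndufa4, a small subunit of the respiratory chain, was at 44.6 and 21.7 CPM in In_ni and at 231 and 127 CPM in In_total, a log2 difference of 2.42 (SE 0.30, limma adjusted p = 0.00014). Cox7b and Ndufa1 had differences of 2.28 and 2.22. Of 74 genes named as mitochondrial ribosomal proteins, a list chosen after its values were seen, 30 rose (40.5%, against 12.6% of all genes tested). None fell with all 4 libraries in the fit (against 18.0%), and the median was 0.60. Without In_ni replicate B 14 rose. Mrps33 was at 42.8 and 21.1 against 136 and 101 CPM, a log2 difference of 1.92.

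Cytosolic ribosomal proteins, the protein part of the ribosome, were higher in In_total in 61 of 84 tested genes (72.6%, against 12.6% of all genes tested) and lower in none. The median log2 difference was 0.95. The summed level of all 85 listed genes was 3753 and 3539 CPM in In_ni against 6586 and 6272 CPM in In_total. The replicates of a pair were thus close. The largest differences at 10 CPM or more were those of Rps27a (9.43 and 4.36 against 47.4 and 40.9 CPM, log2 difference 2.59), Rps27l (257 and 155 against 962 and 714 CPM, 2.05), Rpl30 (1.92) and Rpl39 (1.91). Rps27a encodes a ribosomal protein fused to ubiquitin. Without In_ni replicate B 41 of the genes were called, and none fell.

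Messenger RNAs of ribosomal proteins are known to begin with a run of pyrimidines, through which their translation is regulated. The RefSeq promoter table (build GRCm38.p6) had an entry for 61 of the 84 tested ribosomal protein genes. The letters CTTTCC, searched on both strands from 40 bases before to 20 bases after the annotated start, were in 13 of those 61 genes (21.3%) and in 1692 of 27025 genes of the whole table (6.26%). They were in 10 of the 44 matched genes that rose and in 3 of the 17 that were not called. The windows of the 3 called genes with the largest differences among those with the letters on the strand of the gene are given 5′ to 3′, to show how close to the start the run lies, with the letters in capitals. All 3 are on the plus strand, Rpl38 at chr11:114668540-114668599, Rpl35a at chr16:33056442-33056501 and Rpl39l at chr16:10170188-10170247.
Rpl38: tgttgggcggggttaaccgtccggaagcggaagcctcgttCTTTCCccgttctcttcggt
Rpl35a: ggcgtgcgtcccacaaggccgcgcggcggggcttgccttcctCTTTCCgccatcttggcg
Rpl39l: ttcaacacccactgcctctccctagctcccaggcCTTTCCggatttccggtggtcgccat
Rpl38 was at 3.94 and 3.13 CPM in In_ni and at 16.4 and 14.6 CPM in In_total, a log2 difference of 1.87. Rpl35a (4.42 and 3.53 against 18.3 and 14.1 CPM) had a difference of 1.78, and Rpl39l, a relative of Rpl39 (12.6 and 10.4 against 37.8 and 32.3 CPM), one of 1.53. A match of letters describes the window and is not a measured start of these RNAs. Matches on the other strand or before the start were counted too. The counts are therefore not of RNAs that begin with such a run.

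Of 45 tested genes for ribosome biogenesis and RNA polymerase I, 20 fell (44.4%, against 18.0% of all genes tested) and 7 rose (15.6%, against 12.6%), with a median of -0.44. Bop1, a factor for the large subunit, was at 31.7 and 40.6 CPM in In_ni and at 10.6 and 10.1 CPM in In_total, a log2 difference of -1.70 (SE 0.24, limma adjusted p = 0.00026). Nop2 was also lower (-1.20), while Nop10, a small protein of the particles that modify ribosomal RNA, was at 27.4 and 16.8 against 119 and 74.7 CPM (2.08). The list had 13 genes lower and 5 higher without In_ni replicate A, 7 lower and 2 higher without In_ni replicate B, and 16 lower and 4 higher without In_total replicate A.

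Of 61 tested initiation and elongation factors of translation 10 rose (16.4%, against 12.6% of all genes tested) and 14 fell (23.0%, against 18.0%), with a median of 0.02. The shares were near those of all genes, and the counts were 8 and 8 without In_ni replicate A and 2 and 5 without In_ni replicate B. Eif3b and Eif3a, large subunits of the factor that binds the small ribosomal subunit, were lower in In_total. Eif3b was at 65.4 and 90.4 CPM in In_ni and at 15.8 and 28.8 CPM in In_total (log2 difference -1.80), and Eif3a had a difference of -1.26. Eif1ax, the X-linked gene of eIF1A, was at 69.0 and 44.7 against 158 and 113 CPM, a log2 difference of 1.25 (SE 0.22, limma adjusted p = 0.001). After median rescaling 14 were higher and 9 lower, when all genes tested went from 1730 higher and 2472 lower to 2175 higher and 1742 lower.

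The Sm and Lsm proteins form rings on small nuclear RNAs of the spliceosome and on messenger RNA ends. With all 4 libraries in the fit, 15 of 25 genes were higher in In_total (12.6% of all genes tested were). In that fit 1 was lower (18.0% of all), and the median was 0.97. The median was 0.82 to 1.13 when 1 library was left out. This list was chosen after its values were seen. Snrpg was at 118 and 66.6 CPM in In_ni and at 592 and 360 CPM in In_total (log2 difference 2.36), and Snrpe at 118 and 73.4 against 585 and 369 CPM (2.30). The pairs did not overlap for either gene.

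**Figure D3:**
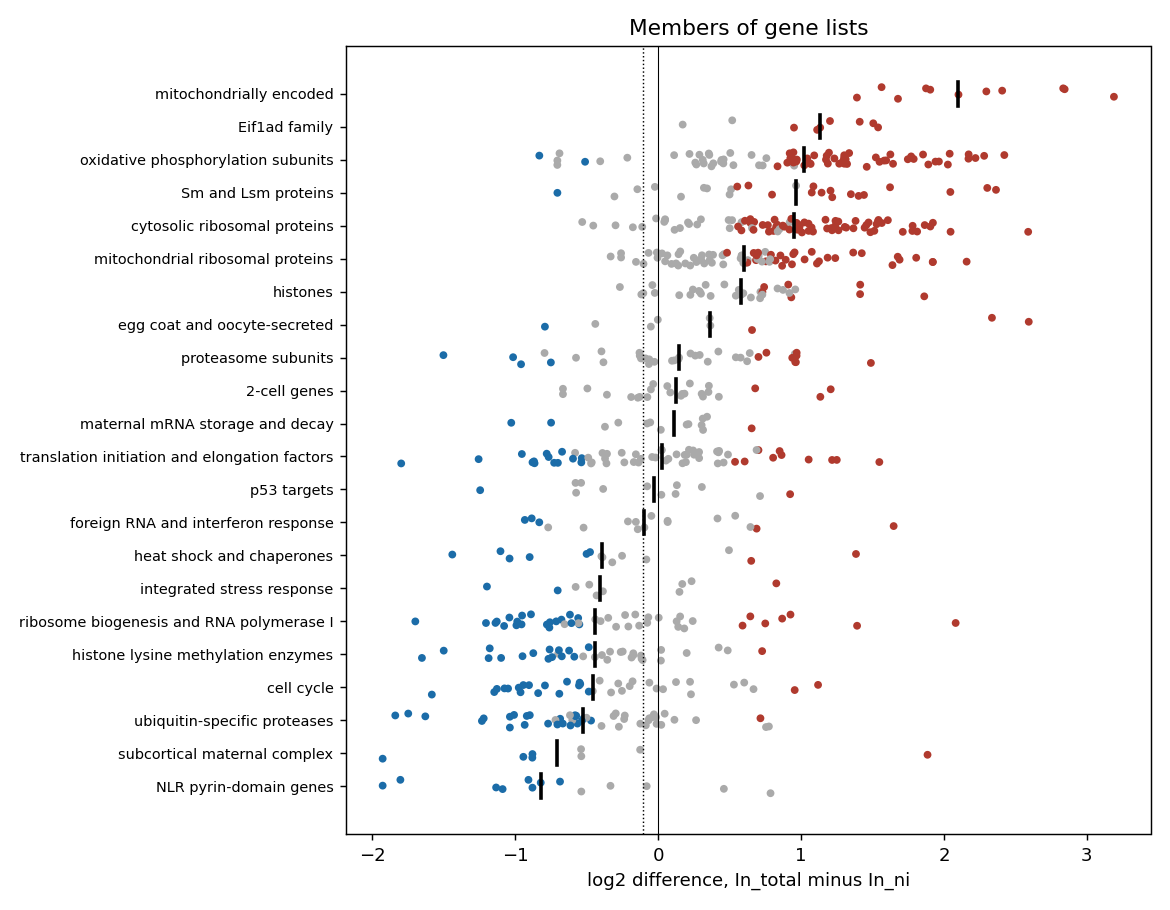
Log2 difference, In_total minus In_ni, of each tested member of 22 gene lists (horizontal axis; 1 point a gene). Red and blue points passed an adjusted p of 0.05 (limma), grey points did not, black bars are list medians, and the dotted line is the median of all genes tested (-0.10); the medians run from 2.10 for mitochondrially encoded genes to -0.82 for NLR pyrin-domain genes.

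Of 9 genes for the egg coat and proteins secreted by the oocyte, 3 rose (33.3%, against 12.6% of all genes tested) and 1 fell (11.1%, against 18.0%), and without In_total replicate A 5 rose and 2 fell. Oosp1 and Oosp3, oocyte-secreted proteins, had by far the largest differences of the list. Oosp1 was at 588 and 428 CPM in In_ni and at 3539 and 1819 CPM in In_total (log2 difference 2.34, SE 0.26, limma adjusted p = 9.1e-05), and Oosp3 at 68 and 39.4 against 618 and 163 CPM (2.59). Astl, the protease that hardens the egg coat after fertilization, was lower, with a log2 difference of -0.79. Gdf9, an oocyte growth factor at 981 and 1091 against 1242 and 1431 CPM, and Zp3, an egg coat protein at 65.1 and 66.5 against 73.9 and 97.3 CPM, did not pass.

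The subcortical maternal complex, an assembly of oocyte proteins needed for the first cleavages, had genes called in both directions. Of 8 tested genes 4 fell (18.0% of all genes tested did) and 1 rose (12.5%, against 12.6%), and 6 had both In_total libraries below both In_ni libraries, as had 38.7% of all genes tested. Nlrp5 was at 462 and 533 CPM in In_ni and at 125 and 135 CPM in In_total, and so was 3.83-fold higher in In_ni (log2 difference -1.93, SE 0.16, limma adjusted p = 2.4e-05). Tle6 (258 and 296 against 126 and 162 CPM) and Padi6 (472 and 554 against 242 and 318 CPM) had differences of -0.94 and -0.88, and Padi6 did not pass without In_ni replicate B (-0.76). Ooep, their partner in the same complex, was at 261 and 157 CPM in In_ni and at 870 and 649 CPM in In_total, a log2 difference of 1.89 (SE 0.22, limma adjusted p = 0.00012). The pairs did not overlap for any of these 4 genes, and the direction of Ooep was opposite to that of the other 3. Without In_ni replicate B 2 genes of the complex were called lower.

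The NLR pyrin-domain genes, many of them expressed in oocytes, fell in 8 of 13 (61.5%, against 18.0% of all genes tested) and rose in none, with a median of -0.82. Without In_total replicate B the median was -0.54, and 1 gene rose without that library or without In_ni replicate B. This list was chosen after its values were seen, and it shares Nlrp5 with the complex. Nlrp14 was at 723 and 751 CPM in In_ni and at 226 and 196 CPM in In_total, a log2 difference of -1.80 (SE 0.15, limma adjusted p = 2.5e-05). Nlrp4c and Nlrp4b had differences of -1.13 and -1.09.

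Of 14 tested genes that store, deadenylate or degrade maternal RNA 1 rose (7.14%, against 12.6% of all genes tested) and 2 fell (14.3%, against 18.0%), shares near those of all genes. Without In_total replicate A 4 rose and 3 fell. Cpeb1, which controls the poly(A) tails of stored RNA, was at 147 and 184 CPM in In_ni and at 79.9 and 80.7 CPM in In_total (log2 difference -1.03). Cnot6l, a deadenylase, was at 237 and 251 against 463 and 319 CPM (0.65), and it did not pass without In_ni replicate A (0.61) or B (0.70). Btg4, the adaptor that recruits deadenylases to maternal RNA, was at 5421 and 5595 against 5895 and 5284 CPM, with overlapping pairs.

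**Figure D4:**
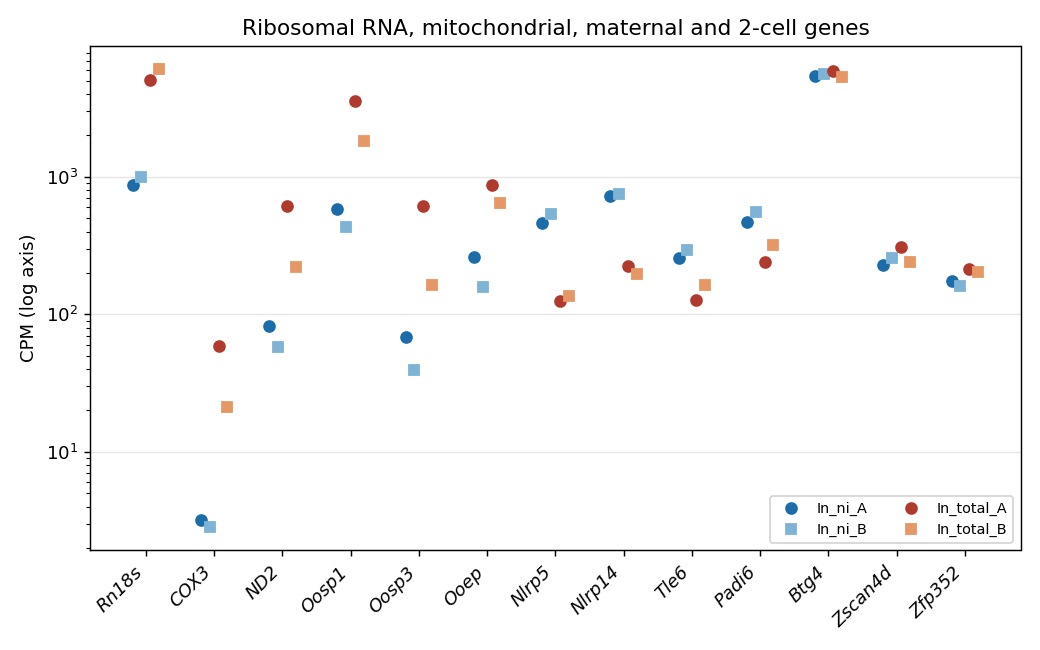
Level of 13 genes (horizontal axis) in the 4 unprecipitated libraries (vertical axis, CPM, logarithmic; 1 point a library). Rn18s, COX3, ND2, Oosp1, Oosp3 and Ooep are higher in both In_total libraries, Nlrp5, Nlrp14, Tle6 and Padi6 are lower in both, and Btg4 and Zscan4d overlap between the pairs.

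Of 24 tested genes that mark genome activation at the 2-cell stage 3 rose and none fell, with a median of 0.12. The median was 0.008 without In_total replicate A, 0.22 without In_ni replicate B and 0.27 after median rescaling. Dux and Duxf3 have the same reads in every library, so the list holds 23 separate measurements. The share that rose, 12.5%, was close to the 12.6% of all genes tested, and 5 rose without In_total replicate B. Tcstv1 and Tcstv3, 2-cell genes of the same family, were at 146 and 112 against 352 and 250 CPM (log2 difference 1.21, SE 0.19, limma adjusted p = 0.00057) and at 122 and 88.7 against 257 and 206 CPM (1.14). Sp110 had a difference of 0.68, and it did not pass without In_ni replicate B (0.62). Zscan4d was at 229 and 258 CPM in In_ni and at 310 and 241 CPM in In_total, and Zfp352 at 175 and 162 against 214 and 204 CPM. Neither passed, and the pairs overlapped for Zscan4d. Dux, the transcription factor that drives many of these genes, was at 1.07 and 3.13 against 0.509 and 1.26 CPM, too low to place the pairs in order. Among 15 tested genes of later lineages and pluripotency 1 was called, a share (6.67%) below that of all genes: Gata4 (at 123 and 137 against 66.7 and 68.2 CPM, log2 difference -0.93). Without In_total replicate A 1 of them rose and 1 fell, and without In_total replicate B 2 rose and 2 fell.

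The cell cycle list fell in 17 of 35 tested genes (48.6%, against 18.0% of all genes tested) and rose in 2 (5.71%, against 12.6%), with a median of -0.46. Its largest changes included genes of the helicase that unwinds DNA at replication. Mcm4 was at 112 and 102 CPM in In_ni and at 31.1 and 39.3 CPM in In_total (log2 difference -1.58, SE 0.18, limma adjusted p = 0.00012), and Mcm2 at 353 and 404 against 154 and 187 CPM (-1.15). Mcm3 and the checkpoint kinase Ttk had differences of -1.13 and -1.07. Without In_ni replicate A 10 genes of the list were lower, and without In_ni replicate B 9. Without In_total replicate B 6 were higher.

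Enzymes that add or remove methyl groups on histone lysines fell in 15 of 35 genes (42.9%, against 18.0% of all genes tested) and rose in 1 (2.86%, against 12.6%), with a median of -0.44. This list and the next were chosen after their values were seen. Kdm1b, a demethylase of the oocyte, was at 274 and 311 CPM in In_ni and at 95.2 and 89.3 CPM in In_total (log2 difference -1.65), and Setdb1, a methyltransferase that silences retrotransposons, at 168 and 158 against 61.2 and 53.2 CPM (-1.50). Ubiquitin-specific proteases fell in 23 of 48 genes (47.9%, against 18.0% of all genes tested) and rose in 1 (2.08%, against 12.6%), with a median of -0.53. Usp19 was at 419 and 461 against 110 and 154 CPM, a log2 difference of -1.75. Without In_ni replicate B 6 methylation enzymes and 11 proteases were lower, and without In_ni replicate A 12 proteases.

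Histones rose in 7 of 33 tested genes (21.2%, against 12.6% of all genes tested). With all 4 libraries in the fit none fell (against 18.0%), and the median was 0.58. Without In_ni replicate A 4 of 32 rose. H3f3a, which encodes the replication-independent histone H3.3, was at 398 and 271 CPM in In_ni and at 934 and 823 CPM in In_total (log2 difference 1.41). H1f8, the oocyte linker histone, was at 1670 and 1631 against 3032 and 3272 CPM (0.93), and it did not pass without In_ni replicate A (0.95) or B (0.92).

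Of 14 heat shock and chaperone genes 6 fell (42.9%, against 18.0% of all genes tested) and 2 rose (14.3%, against 12.6%), and 3 fell without In_ni replicate A or without In_ni replicate B. Hspa5, the chaperone of the endoplasmic reticulum, was at 212 and 248 against 101 and 112 CPM (log2 difference -1.10), and Hspe1, a mitochondrial chaperonin, at 53.9 and 49.0 against 141 and 131 CPM (1.38). In the integrated stress response, which lowers translation initiation, 2 of 10 fell and 1 rose, shares near those of all genes, and Ppp1r15a, which ends that response, was at 320 and 390 against 135 and 174 CPM (-1.20). Without 1 library 1 to 4 genes of that list fell and 0 to 2 rose. Of 17 tested genes that answer foreign RNA or interferon 2 rose (11.8%) and 3 fell (17.6%), against 12.6% and 18.0% of all genes tested, and without In_ni replicate B 1 rose and none fell. Bst2, an antiviral membrane protein, was at 8.62 and 12.4 against 32.3 and 37.1 CPM (1.65). Adar, an RNA-editing enzyme, had a difference of -0.88 and Mavs, the adaptor of the RNA sensors, one of -0.93, and neither passed without In_ni replicate B (-0.77 and -0.64). Ddx58, the sensor RIG-I, was at 32.7 and 23.4 against 57.9 and 35.3 CPM (0.69, limma adjusted p = 0.048), and it did not pass with either other pseudocount, nor without In_ni replicate B (0.46) or In_total replicate A (0.34). Of 12 tested p53 targets 1 rose, Cdkn1a (0.92), and 1 fell, Plk2 (-1.24), shares (8.33% each) below those of all genes. Without In_total replicate A 2 rose, and without In_total replicate B 2 fell. Of 37 tested proteasome subunits 8 rose (21.6%, against 12.6% of all genes tested) and 4 fell (10.8%, against 18.0%), and without In_ni replicate B 2 rose and 2 fell. Among the 12 called were Psma2 of the core (1.49; not called with DESeq2) and Psmd2 of the regulatory cap (-1.50).

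**Figure D5:**
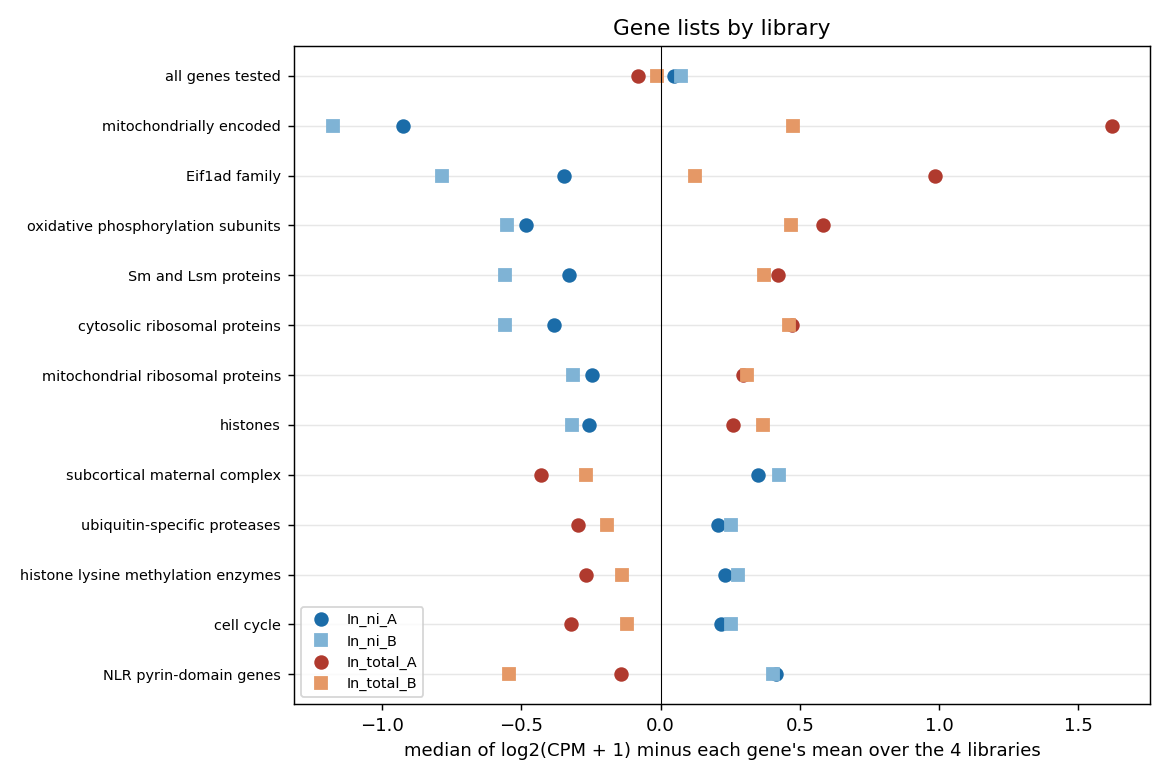
Median over the genes of a list of log2(CPM + 1) minus the gene's mean over the 4 libraries (horizontal axis), for 12 lists and all genes tested; 1 point a library. Both In_ni libraries lie on the same side for every list shown, and In_total replicate A lies further out than replicate B for the mitochondrially encoded genes (1.62 and 0.47) and the Eif1ad genes (0.99 and 0.12).

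Some markers of other cells differed between the pairs. Cumulus and granulosa cell markers summed to 33.8 and 35.1 CPM in In_ni and to 21.1 and 29.8 CPM in In_total, with 5 of 11 tested and 1 lower (18.0% of all genes tested were), a call lost whenever 1 library was left out. Blood markers summed to 4.46 and 4.4 against 22.1 and 13.6 CPM, with Hba-a1, an alpha globin, higher by 1.73 log2 units. The single tested sperm marker, Prm2, was higher by 1.23 and did not pass without In_ni replicate B (1.08), and single fibroblast and oviduct markers were not called, though the fibroblast marker, Pdgfra, was called lower (-1.65) without In_total replicate A. A list of macrophage and MHC class II genes, chosen after its values were seen, rose in 9 of 14 tested genes (64.3%, against 12.6% of all genes tested) and fell in none. It summed to 110 and 107 CPM in In_ni and to 330.2 and 318 CPM in In_total, most of it from H2-Aa. The count was 3 of 14 without In_ni replicate B, and 4 of the 9 genes that could still be tested without In_total replicate A or without In_total replicate B. H2-Aa, a chain of MHC class II, was at 69.5 and 65.9 against 230 and 215 CPM (log2 difference 1.70). Lyz2, a lysozyme of macrophages, was at 0.429 and 0.476 against 25.9 and 17.1 CPM (3.93). In the His pulldown H2-Aa was at 303 and 225 CPM and in the IgG pulldown at 57 and 0.21 CPM. Lyz2 had 0 reads in all 4 pulldown libraries. The sum of the list thus mostly follows H2-Aa and is not a level of 1 cell type. The part of these markers in the differences of other genes was not tested. The 12 markers of the 2-cell embryo itself summed to 5363 and 5313 CPM in In_ni and to 8040 and 6433 CPM in In_total. Of them 2 were higher (Ooep and Dppa3, 16.7% against 12.6% of all genes tested). Another 2 were lower (Nlrp5 and Padi6, 16.7% against 18.0%), so the shares were near those of all genes. Dppa3 (0.63) did not pass without In_ni replicate A (0.66) or B (0.59), nor Padi6 without In_ni replicate B (-0.76). After quantile normalization the difference of Dppa3 was 0.29, and it did not pass.

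The 10 genes with the largest rise at 10 CPM or more, with pairs that did not overlap, included Lyrm4 (6.73 and 3.69 against 61.5 and 38.6 CPM, log2 difference 3.05), B2m (3.0), Tomm5 (2.97) and Tmsb4x (2.95) beside Lyz2, COX3, COX2, Oosp3, Rps27a and Rn18s. Lyrm4 takes part in building iron-sulfur clusters in mitochondria, Tomm5 is a small subunit of the import pore of the outer mitochondrial membrane, and B2m is the light chain of MHC class I. The 10 with the largest fall were Sowaha (10.7 and 16.5 against 1.02 and 1.44 CPM, -2.69), Ripk4, Rhbdf1, Rundc1, Zfp446, Pwp2, Pramel27, Vcpip1, Itpkc and Nomo1, with differences up to -1.93. All but 1 of these were below 30 CPM in every library; Vcpip1, a deubiquitinase at 71.5 and 65.4 against 19.2 and 15.1 CPM, was the exception.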

How the data were processed

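Per the labels' protocols, samples went into a Smart-seq2 library kit without prior RNA extraction. The authors deposited CPM, reads per gene scaled to a common total per library. The submitters' processing notes name Trim Galore 0.6.7, FastQC, HISAT2 2.2.1, featureCounts 2.0.1, edgeR and the build GRCm39, and filters on genes are not given in the sources used here. In each library 100% of CPM values were whole reads (within 0.01 read), so read counts were recovered. The 4 columns were placed by name stem only. Genes that reached 1 CPM in 2 or more of the 4 libraries entered a limma fit (version 3.58.1, R 4.3.3) of log2(CPM + 1) (mean-variance trend, two-sided, Benjamini-Hochberg adjustment, threshold 0.05). On this scale the change of low genes comes out too small. Standard errors (SE) are limma's. The alternatives were count tests on the recovered reads (edgeR 4.0.16, DESeq2 1.42.0), other pseudocounts (0.1 and 5), filters and scalings, a fit with no trend, a block for the replicate letter, all 8 libraries, and leaving out each library. The script was tested on simulated data.

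The members and lists were chosen with earlier results of these data known. Named genes are the Eif1ad genes, up to 4 called members of a list with the largest differences at a mean of at least 10 CPM in the higher pair (else up to 2 at the highest level), and the 10 called genes per direction with the largest differences and pairs that do not overlap. Of the genes that this rule names some are given by count alone. B2m, Btg4, Ddx58, Dppa3, Dux, Gapdh, Gdf9, Tmsb4x, Nlrp14, Zfp352, Zp3, Zscan4d, Rn18s-rs5, Rpl38, Rpl35a and Rpl39l were first chosen after their values were seen, though B2m, Tmsb4x, Nlrp14 and Dppa3 also meet the rule. RefSeq tables of build GRCm38.p6 gave promoter sequences, and transcript lengths were not used here, so levels are not compared between genes. Whether the differences between the pairs follow transcript length was not tested. Some genes share all their reads with another in the table, as did 58 of 6978 genes at 10 CPM or more in all 4 libraries.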

Additional observations from a re-analysis of the deposited data

How the results depend on the processing

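The number of genes called between the pairs, 4202, was within 1.5 times of that under both pseudocounts, both filters, both scalings, edgeR, DESeq2 and the replicate block (3224 to 6144). It was 2792 without a trend and 3 with all 8 libraries of the table in the fit (1403 genes at an unadjusted p under 0.05), and it ranged from 1607 to 5112 when 1 library was left out. Among genes called both in the first fit and under an alternative, none had opposite directions. Of the 4202 genes, 3468 were also called with the same sign by edgeR and DESeq2. Eif1ad3 was called under quantile normalization (0.64), edgeR (0.69), DESeq2 (0.69) and the replicate block (0.52, adjusted p = 0.00035), and ranged from 0.15 to 0.88 when 1 library was left out.

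The replicate block rests on 2 pairs of letters whose deviations from the pair means correlated at 0.23 across genes. With 2 pairs, and no label that says what a letter stands for, this does not settle whether libraries of the same letter belong together. The block raised the count from 4202 to 6144.

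Some genes not called between the pairs changed sign. Gapdh, a glycolytic enzyme, was at 0.10 after median rescaling, 0.047 after quantile normalization, 0.080 with edgeR, 0.085 with DESeq2 and -0.24 to 0.16 without 1 library. Btg4 was at -0.25 after quantile normalization and -0.060 to 0.0981 without 1 library, Zscan4d was at -0.011 to 0.35 and Pdgfra, a fibroblast marker, at -1.65 to 0.27 without 1 library. The cause was not tested. A floor of 3 reads, 0.119 to 0.191 CPM, limits what the lowest genes can show.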
